A study of Mus musculus with 31 samples.

Results

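Ephrins and Eph receptors were followed through the neural stem cells and tumours of a mouse medulloblastoma study. The set was defined by name, as Efna2, Efna5, Efnb1, Efnb2, Efnb3, Epha4, Epha5, Epha7, Ephb1 and Ephb2, and each gene was read through its brightest probe set with a single symbol. This gave values for 9 of the 10 genes, out of 18194 genes measured. Ephb2 had no such probe set and was not analysed here.

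Eph receptors are receptor tyrosine kinases, and ephrins are their membrane-bound ligands. The A-type ephrins are attached to the membrane by a lipid anchor and bind mainly EphA receptors, while the B-type ephrins cross the membrane and bind mainly EphB receptors. Contact signals into both cells, usually as repulsion or as a change in adhesion. In the developing brain the system is known for guiding axons, for keeping cells of neighbouring regions apart and for acting on stem cells of the ventricular walls.

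All samples carried the C57BL/6 background, and RNA of each was measured on a separate Affymetrix mouse array. Neural stem cells (NSC) came from postnatal day 7 mice and grew as neurospheres with EGF and FGF2; 3 cultures per region represent the forebrain's subventricular zone (SVZ), the IV ventricle region and the cerebellar white matter. Cancer stem cell lines came from 8 medulloblastomas of the genotype Ptch het p53 wt, each with its matched tumour tissue, and further cancer stem cells came from 2 tumours of the genotype Ptch het p53 het, named 27 and B. The latter had 3 technical arrays per tumour, which were averaged, so 31 arrays gave 27 samples. The labels give no genotype for the NSC and no age for the tumours, and nothing says how many animals a culture came from, so p-values measure the spread between these samples.

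All values are log2 intensities, so a difference of 1 is a 2-fold difference. Because probe sets differ in brightness, levels are compared between samples for 1 gene and never between genes. The files used here hold no detection calls. As a guide, Y-linked genes in the 15 samples without Y signal read between 0.72 and 1.57, a choice made with the data in view. The neural stem and radial glial marker list averaged between 8.21 and 9.11 in the NSC, with 0 of 8 markers at that floor.

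A single culture stands apart from its label. IV ventricle culture 2 read 7.67 for En2 and 6.44 for Otx2, whereas IV ventricle cultures 1 and 3 read 4.50 and 5.72 for En2 and 1.72 and 2.13 for Otx2. Its sample name also carries a date mark that no other NSC culture shares. Results that rest on it are given with and without it, a choice made with the data in view.

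Efna5 and Epha5 spanned the widest range of levels among the 9 genes, with group means 4.92 and 4.32 apart. Their promoters, as listed by RefSeq on GRCm38.p6, are shown because the results turn on these genes and because Efna5 is set beside homeobox genes below. Each sequence is the 250 bases before the listed transcript start, on the minus strand, at chr17:62881318-62881567 for Efna5 and chr5:84417383-84417632 for Epha5. Capitals mark a match to either of the letters searched.
Efna5: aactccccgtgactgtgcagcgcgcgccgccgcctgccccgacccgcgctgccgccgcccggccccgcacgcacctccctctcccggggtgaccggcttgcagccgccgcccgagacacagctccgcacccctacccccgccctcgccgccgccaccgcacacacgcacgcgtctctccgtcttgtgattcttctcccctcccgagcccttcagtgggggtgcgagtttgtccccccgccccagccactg
Epha5: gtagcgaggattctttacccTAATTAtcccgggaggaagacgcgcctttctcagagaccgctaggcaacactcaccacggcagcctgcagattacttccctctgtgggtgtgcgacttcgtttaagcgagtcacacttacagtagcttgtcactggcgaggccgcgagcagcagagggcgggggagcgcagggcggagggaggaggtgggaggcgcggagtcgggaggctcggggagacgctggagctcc
The letters were TAATTA, the core bound by Engrailed-type homeodomains, and TAATCC or its reverse complement GGATTA, the core bound by Otx-type homeodomains, on both strands. The Epha5 window held a single TAATTA, which begins 230 bases before the start, and the Efna5 window held neither. TAATTA was present in 4.84% of 32851 windows of this length and the Otx-type letters in 6.25%. Windows were listed for 9 of the 10 genes (not Efnb3), and in these TAATTA was found for Epha5 alone and the Otx-type letters for none. The Efna5 window was 74.8% G or C and the Epha5 window 62.4%, against a median of 52.4%. A match is a description of the letters, not a measured site.

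**Figure D1:**
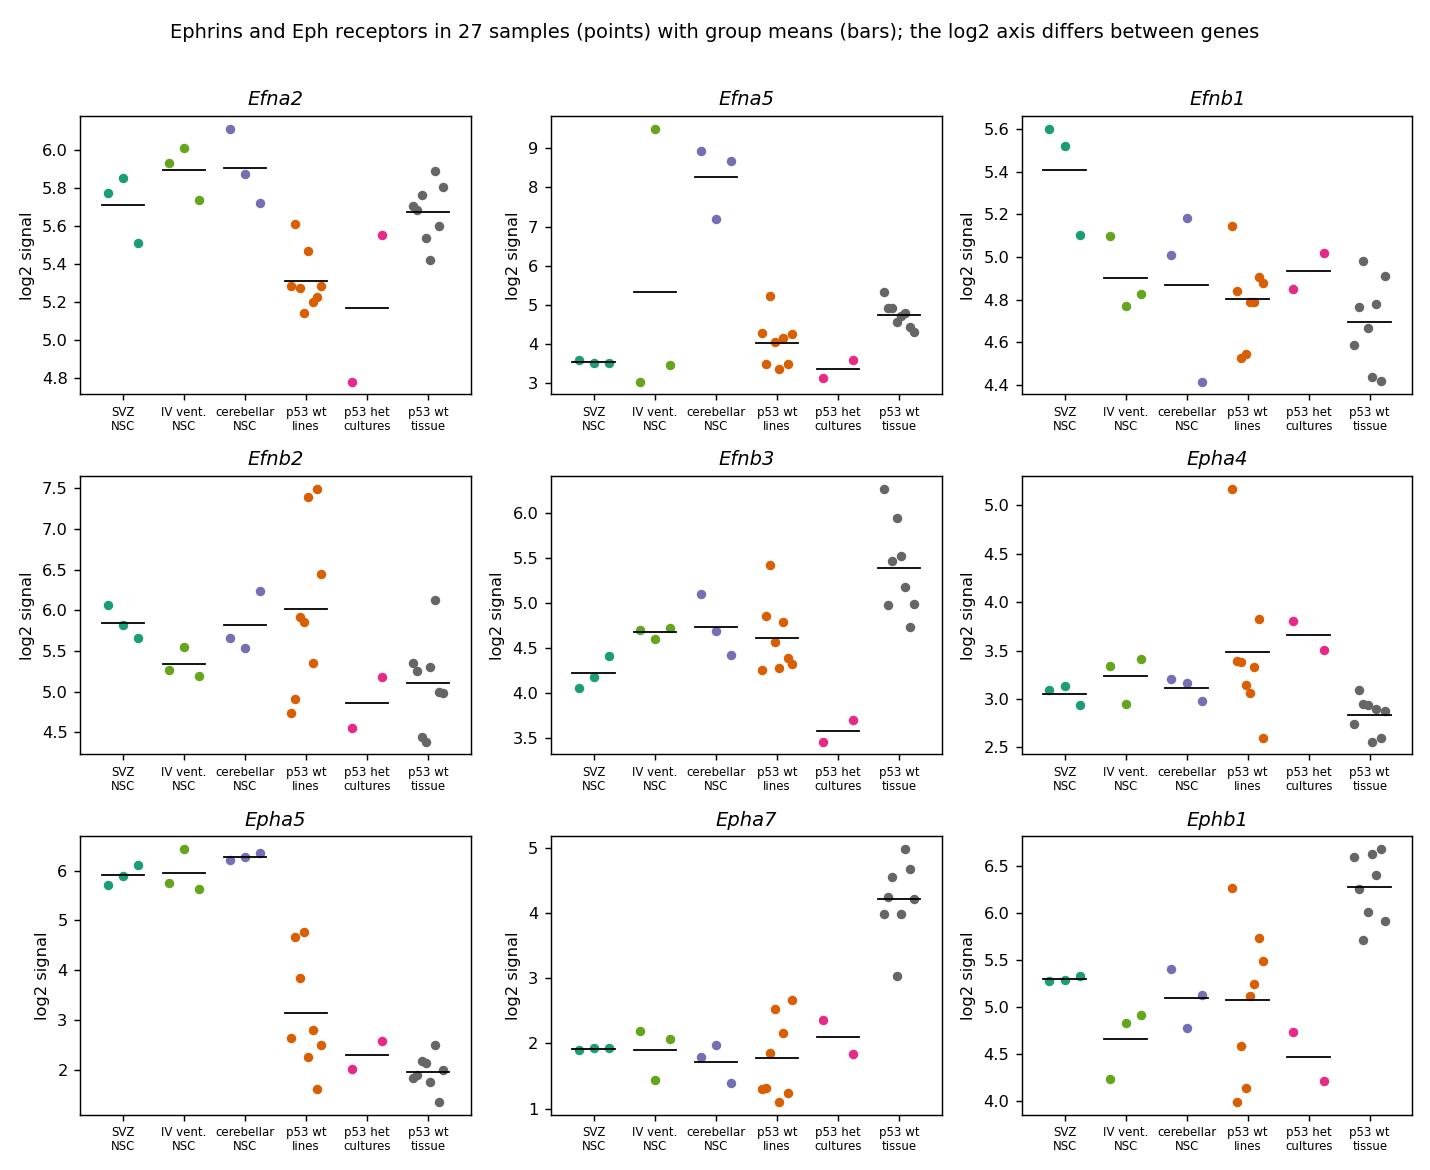
Log2 signal of each of the 9 genes (a panel each, with its own axis) in 27 samples. Points are samples and bars are group means. Epha5 sits between 5.64 and 6.43 in all 9 NSC cultures and at 4.76 or below elsewhere. Epha7 and Ephb1 have their highest group mean in tissue.

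Of the A-type ligands, Efna5, a repulsive cue for axons and migrating cells, was the gene of the 9 that differed most between stem cell cultures. It read 8.94, 7.19 and 8.67 in cultures from the cerebellum and 3.58, 3.52 and 3.51 in those from the SVZ. The IV ventricle cultures read 3.03, 9.50 and 3.46. Cerebellar and SVZ cultures therefore did not overlap, while IV ventricle culture 2 lay above every cerebellar culture and the other two IV ventricle cultures lay at or below the SVZ values.

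The mean of the cerebellar cultures was 4.73 ± 1.40 (SE) above that of the SVZ cultures, which is 26.5-fold. This missed the threshold in limma's test across all genes (adjusted p = 0.174, n = 3 and 3). That fit takes its error from all 9 NSC cultures, among which the IV ventricle cultures varied most; with the 6 cerebellar and SVZ arrays alone the same difference had an adjusted p of 0.00186 in limma, in a fit that called 1.92% of all genes. The IV ventricle mean was 2.94 below the cerebellar mean, with an adjusted p of 1. Without IV ventricle culture 2 that difference was -5.02, with an adjusted p of 0.0078, and Efna5 was then 1 of the 7 genes called, or 0.0385% of those tested. That culture was singled out with the data in view and held the highest Efna5 value of the NSC. Leaving it out widens this difference by construction, so that p-value is a description and not a test. Without the same culture the IV ventricle mean lay 0.29 below the SVZ mean rather than 1.79 above it, and neither passed (limma's adjusted p = 0.96 and 0.8).

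En2 and Otx2, homeobox genes that mark the midbrain and hindbrain boundary region, are set beside Efna5 because engrailed genes are known to control A-type ephrins in the midbrain. The 3 cerebellar cultures read 7.57, 7.52 and 7.53 for En2 and 5.07, 4.46 and 4.92 for Otx2. In the other NSC cultures, apart from IV ventricle culture 2, En2 lay between 4.50 and 5.72. Otx2 divided the cultures differently, because the SVZ cultures, with low Efna5, read 4.23, 4.63 and 4.92 for it.

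The tumour samples did not repeat the pairing of high En2 with high Efna5. Line 91 had the highest En2 of the lines, 7.27, with Efna5 at 3.47, and line 74 had the highest Efna5, 5.21, with En2 at 6.83. In tissue En2 ran from 6.54 to 7.40 and Efna5 from 4.30 to 5.31. These values are a description, and no relation between the genes was tested.

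**Figure D2:**
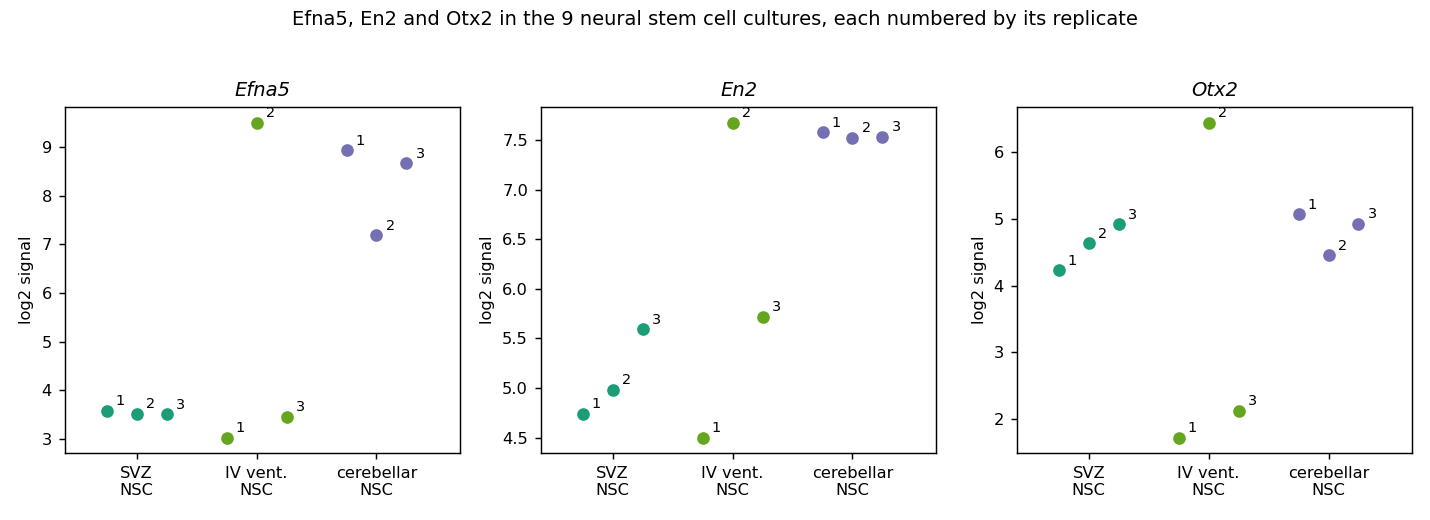
Log2 signal of Efna5, En2 and Otx2 in the 9 NSC cultures, each point numbered by its replicate. IV ventricle culture 2 lies with the cerebellar cultures for Efna5 (9.50) and En2 (7.67), and above all others for Otx2 (6.44).

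In the p53 wild-type lines Efna5 ran from 3.35 through a median of 4.09 to 5.21, and the p53 het tumours 27 and B read 3.11 and 3.58. All tumour cultures thus lay below every cerebellar culture and above or among the low IV ventricle cultures. Against hindbrain NSC, taken as the average of both hindbrain group means, the p53 wild-type lines were lower by 2.77 ± 0.73 (adjusted p = 0.0229) and the p53 het cultures by 3.45 ± 1.10 (adjusted p = 0.0262). Without IV ventricle culture 2 these differences were -1.73 (adjusted p = 0.0044) and -2.41 (adjusted p = 8.69e-04). Set against the IV ventricle cultures alone they were -1.30 (adjusted p = 0.536) and -1.98 (adjusted p = 0.291), so the result rests on the cerebellar cultures. Both of these negative values rest on IV ventricle culture 2, at 9.50. IV ventricle cultures 1 and 3 read 3.03 and 3.46, against means of 4.03 in the lines and 3.35 in the p53 het cultures. The call for the lines was also lost without cerebellar culture 1 or 3 (adjusted p = 0.0608 and 0.0528) or with the lines of either date mark alone (adjusted p = 0.114 and 0.0892). The call for the p53 het cultures was lost without tumour 27 or B (adjusted p = 0.158 and 0.0974) and with only the arrays of the groups compared (adjusted p = 0.154).

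The other Efna5 probe set carried little of this pattern. Probe set 1436866_at gave the values above, and 1421796_a_at had group means between 2.19 and 2.89, the highest in cerebellar NSC. On 1421796_a_at the lines were 0.31 below hindbrain NSC, with an adjusted p of 0.308. Which transcripts each probe set reads was not tested.

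Efna2, the other A-type ligand of the set, moved by less but more evenly. IV ventricle cultures read 5.93, 6.01 and 5.74, cerebellar cultures 6.11, 5.87 and 5.72, and SVZ cultures 5.77, 5.85 and 5.51. The p53 wild-type lines ran from 5.14 through 5.28 to 5.61, below every hindbrain culture, and were lower by 0.59 ± 0.11 (adjusted p = 0.00388). The p53 het tumours read 4.78 and 5.55, a mean 0.73 ± 0.17 below hindbrain NSC (adjusted p = 0.00375). That call rests on tumour 27, since without it the difference was -0.34 (adjusted p = 0.22). Among the lines of the later date mark alone the difference was -0.52 with an adjusted p of 0.062, and the dimmer Efna2 probe set was not called in either comparison.

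Of the B-type ligands, Efnb1, an X-linked ligand that sorts cells at tissue borders, was highest in SVZ cultures. These read 5.60, 5.52 and 5.10, and the p53 wild-type lines 4.53 through 4.82 to 5.15. The lines were 0.61 ± 0.16 lower (1.52-fold, adjusted p = 0.0308). The ranges touched, as the third SVZ culture lay under the highest line, and the call was lost without SVZ culture 1 (adjusted p = 0.193) or 2 (adjusted p = 0.178) and with the lines of the later date mark alone (-0.58, adjusted p = 0.11). Hindbrain NSC, p53 het cultures and tissue overlapped the lines, with group means from 4.69 to 4.94. These values are from 1418286_a_at. The dimmer probe sets 1451591_a_at and 1418285_at had SVZ means of 5.15 and 5.26, against 4.17 and 3.80 in the lines.

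Efnb2, the ligand that marks arteries and also signals between neural stem cells and their surroundings, had its largest spread among the p53 wild-type lines. Lines 83 and 91 read 7.39 and 7.49, while lines 49 and 68 read 4.74 and 4.91. The NSC cultures lay between 5.19 and 6.24, the p53 het tumours at 4.55 and 5.18, and the tissues between 4.39 and 6.13. No difference in Efnb2 passed the test; the largest between cultures was between p53 het and p53 wild-type cultures, -1.15 ± 0.55 (adjusted p = 0.153), with overlapping ranges, and with the lines of the earlier date mark alone it passed (-1.43, adjusted p = 0.0227). The tissues of tumours 83 and 91 lay within the tissue range, the former at 5.31 against a median of 5.13.

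Efnb3, a ligand of the ventral midline that stops axons from crossing, was lowest in the p53 het tumours. Tumours 27 and B read 3.46 and 3.69, below all 25 other samples, of which the lowest was an SVZ culture at 4.06. The p53 wild-type lines ran from 4.25 through 4.47 to 5.42 and the hindbrain cultures from 4.42 to 5.09. The p53 het mean was 1.03 ± 0.24 below the p53 wild-type lines (2.04-fold, adjusted p = 0.00366) and 1.13 ± 0.25 below hindbrain NSC (adjusted p = 0.00233). Without tumour 27 the first difference was -0.91, with an adjusted p of 0.0631, while the second kept its call without either tumour. The p53 wild-type lines themselves differed from hindbrain NSC by -0.10 ± 0.16 (adjusted p = 0.803). The p53 het arrays share no date mark with the p53 wild-type lines or the NSC, so date mark and p53 genotype cannot be told apart in any of these comparisons.

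Of the A-type receptors, Epha5, a receptor for ephrin-A5 in axon mapping and synapse formation, separated normal from tumour cultures. SVZ cultures read 5.72, 5.89 and 6.11, IV ventricle cultures 5.75, 6.43 and 5.64, and cerebellar cultures 6.21, 6.27 and 6.34. The lines read 1.61 (tumour 91), 2.25 (83), 2.49 (92), 2.63 (49), 2.79 (9), 3.85 (74), 4.66 (68) and 4.76 (77), and the p53 het tumours 2.02 (27) and 2.57 (B). No tumour culture reached the lowest NSC culture, although lines 68 and 77 came within 1 log2 unit of it.

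The p53 wild-type lines were 2.98 ± 0.42 below hindbrain NSC (7.88-fold, adjusted p = 4.32e-04) and 2.78 ± 0.52 below SVZ NSC (6.85-fold, adjusted p = 0.00416). The p53 het cultures were 3.81 ± 0.63 below hindbrain NSC (14.1-fold, adjusted p = 1.98e-04). These calls held without any single culture. Only the p53 het difference remained when a difference of at least 2-fold was tested (limma's treat), where the p53 wild-type differences had adjusted p-values of 0.08 and 0.466. The p53 het and p53 wild-type cultures did not differ beyond their spread (-0.84 ± 0.61, adjusted p = 0.378).

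All 4 Epha5 probe sets gave the same order, with the 3 NSC groups above the tumour groups and tissue lowest. In the comparison of lines with hindbrain NSC the other probe sets fell by 2.57, 2.58 and 1.07, with adjusted p-values of 1.70e-05, 3.14e-05 and 4.53e-04. NSC and tumour cultures share no date mark, so date mark and culture type cannot be told apart. Among the cultures the 6 astrocyte markers averaged 5.63 to 7.15 in NSC, 4.53 to 5.39 in the p53 wild-type lines and 3.25 to 5.30 in the p53 het cultures, but 6.06 to 8.23 in tissue, where Epha5 was lowest. Against hindbrain NSC 3 of the 6 passed in the lines: Aldh1l1, an astrocyte and radial glial enzyme, and Aqp4, a water channel, were lower (means of 2.75 against 9.48 and 1.83 against 3.88), and S100b was higher (7.36 against 4.66). In the p53 het cultures 4 were lower and S100b was again higher, at 9.49. Their part in the Epha5 difference was not tested.

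**Figure D3:**
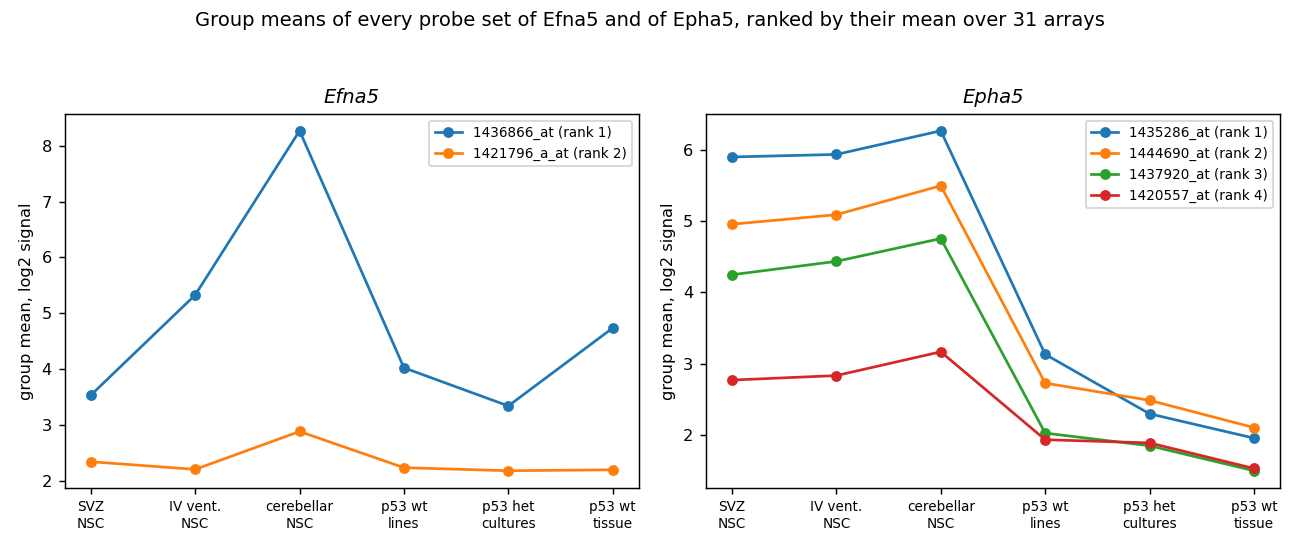
Group means in log2 signal of each probe set of Efna5 and Epha5, joined over the 6 groups. The 4 Epha5 probe sets fall together from NSC to tumour, while the second Efna5 probe set stays between 2.19 and 2.89.

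Epha4, a receptor that binds both classes of ephrin, ranged narrowly outside the tumour lines. NSC cultures lay between 2.93 and 3.41, p53 het tumours at 3.80 and 3.51, and the lines between 2.59 and 3.83 apart from line 49 at 5.17. None of its differences between cultures passed the test. Epha7, a receptor that acts in cortical and neural tube development, was low in every culture, between 1.10 and 2.66, and 6 of the 19 cultures, among them lines 49, 68, 83 and 91, lay within the floor guide. The tissue values, given below, were all above 3.

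Ephb1, the only B-type receptor of the set with values and a receptor for ephrin-B2, read 5.27, 5.29 and 5.33 in SVZ cultures, 4.23, 4.82 and 4.91 in IV ventricle cultures and 5.40, 4.77 and 5.12 in cerebellar cultures. The lines spread further, from 3.99 (tumour 68) and 4.14 (77) to 5.73 (91) and 6.27 (49). The p53 het tumours read 4.73 and 4.21. No comparison between cultures passed the test for Ephb1.

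Counted over the set, 0 of 9 genes passed in any of the 3 comparisons between stem cell regions, where 0.764% of all genes passed for IV ventricle against SVZ, 1.10% for cerebellar against SVZ and 0% for IV ventricle against cerebellar cultures. At an unadjusted p under 0.05, 4, 3 and 2 of the 9 would have passed in limma, where 9.51%, 13.7% and 3.07% of all genes did. With the date mark as a block Efna5 and Efnb1 passed for cerebellar against SVZ cultures (adjusted p = 9.59e-04 and 0.036, among 728 of the 18194 genes) and Efna5 for IV ventricle against cerebellar cultures (adjusted p = 0.0115, among 0.0495% of them). The p53 wild-type lines differed from hindbrain NSC in 3 of 9 genes, all lower, against 9.56% of all genes, and from SVZ NSC in 2 of 9, both lower, against 5.85%. The p53 het cultures differed from hindbrain NSC in 4 of 9, all lower, against 26.8%, and from the p53 wild-type lines in 1 of 9, against 26.3%. With 9 genes, counts of 4 and 1 lie on either side of those shares and are not read as a property of the set. The comparisons against hindbrain NSC use the same control cultures, and both comparisons of the p53 het cultures use the same 2 tumours.

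**Figure D4:**
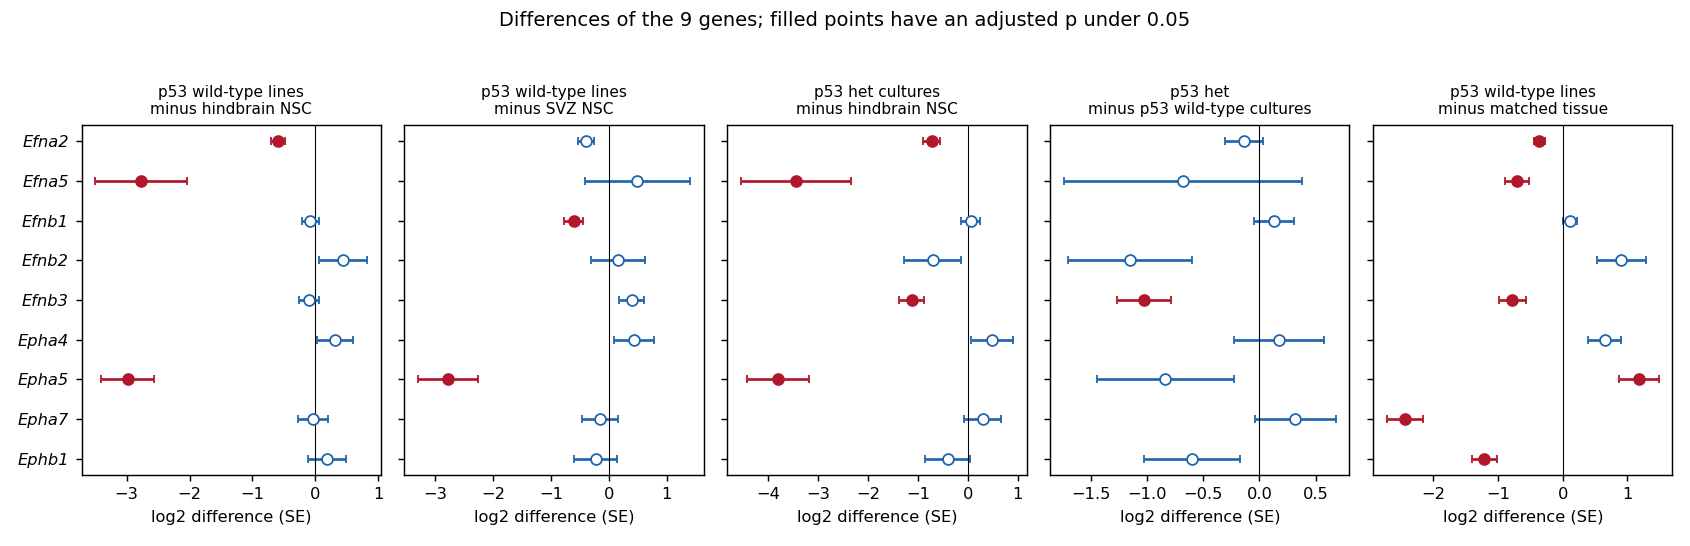
Log2 difference with its standard error (bars) for the 9 genes in 5 comparisons, each panel with its own axis. Filled points have a limma adjusted p under 0.05. Epha5 lies at -2.98, -2.78 and -3.81 in the 3 comparisons with NSC and at 1.18 against tissue.

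Lines and their tissues gave the most differences: 6 of 9 genes passed, where 49.6% of all genes did. With the tumour as the block, Epha7 was lower in the lines by 2.44 ± 0.28 (5.43-fold, adjusted p = 5.00e-05), and all 8 tissues lay above their line. Tissue read from 3.04 through 4.24 to 4.99 and the lines from 1.10 through 1.59 to 2.66, without overlap. This difference also passed the 2-fold test and held in the 4 pairs whose line and tissue share a date mark (-2.63, adjusted p = 8.56e-04). Lines 49, 68, 83 and 91 lie at the floor, below which the array resolves no differences. The size of the difference is that of probe set 1451991_at. The dimmer Epha7 probe sets had tissue means of 2.81, 2.75 and 1.16, against 2.01, 1.90 and 0.85 in the lines.

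Ephb1 was likewise lower in the lines in 8 of 8 pairs, by 1.21 ± 0.20 (2.31-fold, adjusted p = 6.35e-04). Its tissues read 5.72 through 6.33 to 6.69. Efnb3 was lower in 8 of 8 pairs, by 0.78 ± 0.21 (adjusted p = 0.0118); the difference was smallest in tumour 74, 5.42 in the line and 5.46 in the tissue, and largest in tumour 49, 4.25 and 6.26. Efna5 was lower in 7 of 8 lines, by 0.71 ± 0.19 (adjusted p = 0.00929), and Efna2 in 7 of 8, by 0.36 ± 0.09 (adjusted p = 0.00529). The exceptions were line 74 for Efna5 and line 83 for Efna2.

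Epha5 alone was higher in the lines, by 1.18 ± 0.31 (2.26-fold, adjusted p = 0.00955), in 8 of 8 pairs. Tissue read from 1.35 through 1.95 to 2.49, near the floor guide, so the mean of the lines lay between those of tissue and NSC. The ranges of lines and tissue overlapped, as lines 91, 83 and 92 read 1.61, 2.25 and 2.49. The excess was 2.76 in tumour 68 and 0.27 in tumour 91. Efnb2 and Epha4 were 0.91 ± 0.38 and 0.65 ± 0.25 higher in the lines and did not pass (adjusted p = 0.0755 and 0.0521). Both passed with each array centred on its median (0.99, adjusted p = 0.048, and 0.74, adjusted p = 0.0279), and Epha4 also with quantile normalization repeated, with the mean of its probe sets and without the tumour block (adjusted p = 0.0349, 0.0418 and 0.0424). Efnb1 differed by 0.11 ± 0.11 (adjusted p = 0.448).

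In the 4 pairs that share a date mark, 3 genes passed (Efna2, Epha7 and Ephb1) among 40.2% of all genes. Efna5 (-0.34, adjusted p = 0.268), Efnb3 (-0.36, adjusted p = 0.0571) and Epha5 (0.68, adjusted p = 0.0748) were not called there. Cell type markers moved with the same comparison. All 8 granule neuron lineage markers were lower in the lines, and their mean per sample was 7.87 to 8.64 in tissue and 3.45 to 3.81 in lines. All 8 microglia and macrophage markers were lower as well (5.32 to 6.49 in tissue, 1.72 to 2.03 in lines, with 3 of 8 at the floor), as were all 8 endothelial markers (3.06 to 3.62 against 2.00 to 2.34) and all 8 mural and fibroblast markers (3.71 to 4.93 against 1.93 to 2.41). Other lists moved in part or both ways. Of the 8 neural stem and radial glial markers 6 were higher in the lines and 2 lower. Of the 7 oligodendrocyte lineage markers 3 were higher and 3 lower. Mature neuron and astrocyte markers were lower in 5 of 8 and 4 of 6, and 0 were higher. In bulk RNA, fewer cells of a type and less RNA per cell cannot be told apart, and the part of these cells in the ephrin and Eph differences was not tested.

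**Figure D5:**
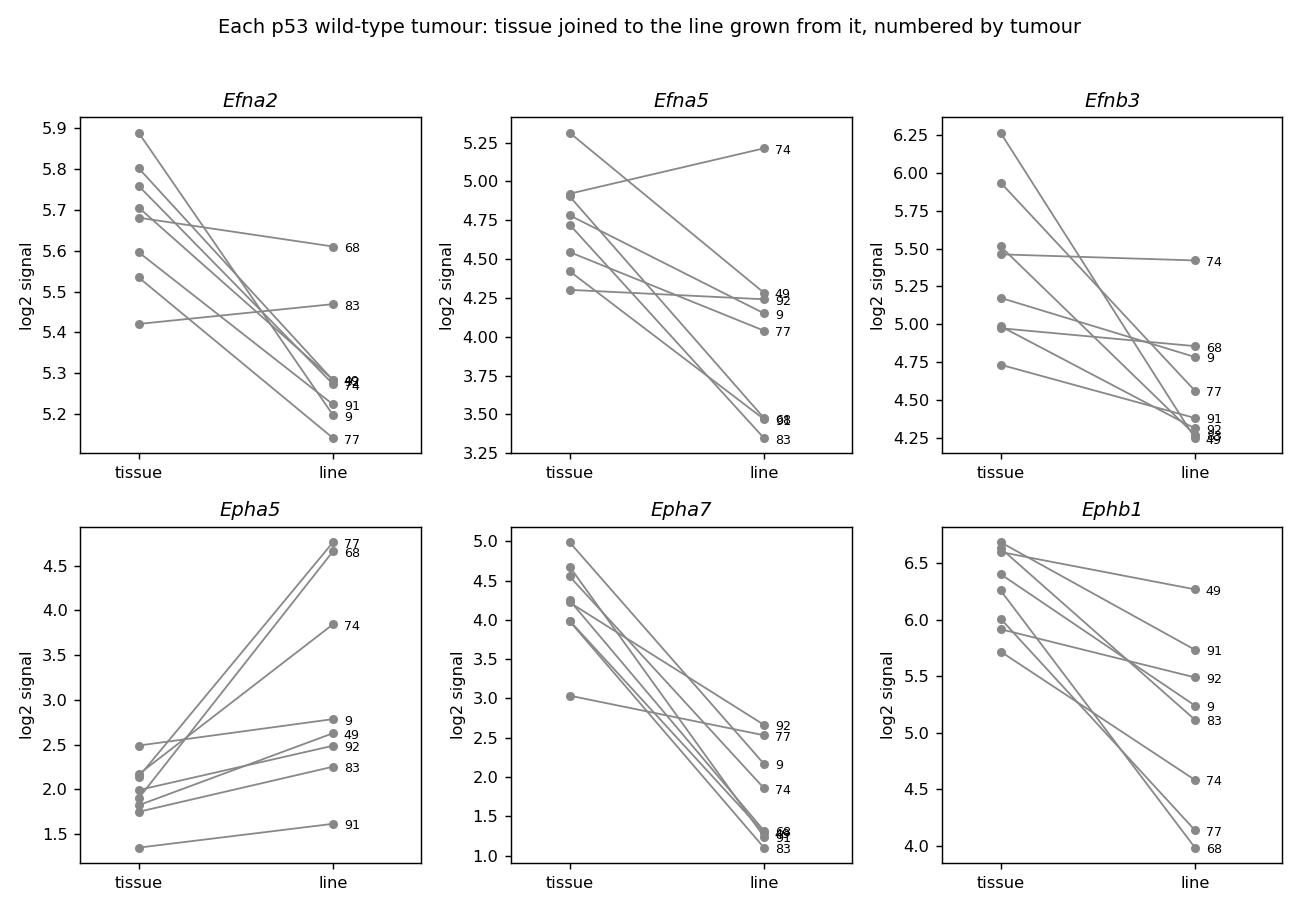
Log2 signal in each of the 8 p53 wild-type tumours, with tissue joined to the line grown from it and numbered by tumour. All 8 joining lines run down from tissue to line for Efnb3, Epha7 and Ephb1 and up for Epha5, while Efna2 and Efna5 have 1 exception each (83 and 74).

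The rest of the family was read from a list of 12 other ephrins and Eph receptors. None of the 12 passed in the comparisons between stem cell regions or of p53 wild-type lines with NSC (at an unadjusted p under 0.05, between 0 and 2 of 12 in limma). At that unadjusted p 9.51%, 13.7% and 3.07% of all genes passed between regions. For the lines against hindbrain and SVZ NSC 22.9% and 19.9% did. In the p53 het cultures Efna1, the ligand first found as a cytokine-induced gene, was higher than in hindbrain NSC by 2.23 ± 0.47 (adjusted p = 0.00167) and than in p53 wild-type lines by 2.09 ± 0.46 (adjusted p = 0.0022). Ephb4, the receptor of veins, and Ephb3 also rose, by 0.98 ± 0.29 (adjusted p = 0.017) and 0.60 ± 0.18 (adjusted p = 0.0205) against hindbrain NSC, and Epha2, a receptor of epithelia, fell by 1.20 ± 0.28 (adjusted p = 0.00343). Ephb4 and Epha2 lost these calls without tumour B (adjusted p = 0.262 and 0.0793) and Ephb3 without tumour 27 (adjusted p = 0.464). Against the p53 wild-type lines Ephb3 and Ephb4 rose by 0.55 ± 0.18 (adjusted p = 0.0271) and 0.80 ± 0.28 (adjusted p = 0.0428), and Ephb4 lost that call in 10 of 18 alternative settings. Ephb3 lost it without tumour 27 (0.23, adjusted p = 0.567), with only the arrays of the groups compared (adjusted p = 0.0895) and with the lines of the later date mark alone (adjusted p = 0.0996). The count there was 3 of 12, near the 26.3% of all genes, and with only the arrays of the groups compared 1 of 12. Against hindbrain NSC it was 4 of 12, where 26.8% of all genes passed, and without tumour B 2 of 12.

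Against tissue, 7 of the 12 passed in the lines, 3 higher and 4 lower, near the 49.6% of all genes. Epha3, a receptor for A-type ephrins, ran from 5.50 to 8.20 in tissue, while its lines, at 1.14 to 1.70, lay at or near the floor. The measured difference of lines from tissue was -5.72 (adjusted p = 1.76e-07 in limma), with a tissue mean of 7.17. Since the lines lay at or near the floor, its size is not exact. Ephb6, whose kinase domain is inactive, and Epha8 fell by 1.24 ± 0.18 (adjusted p = 2.16e-04) and 1.17 ± 0.31 (adjusted p = 0.00951). Ephb3 rose by 1.64 ± 0.11 (adjusted p = 9.50e-07), Ephb4 by 0.80 ± 0.17 (adjusted p = 0.00292) and Epha2 by 0.61 ± 0.15 (adjusted p = 0.00638). Epha2 and Epha8 lost their calls in the 4 pairs that share a date mark, where the differences were 0.27 (adjusted p = 0.212) and -1.35 (adjusted p = 0.0963).

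Of 40 listed genes of Eph and ephrin signalling partners, 37 were measured. None passed between stem cell regions (4, 7 and 0 of 37 at an unadjusted p under 0.05 in limma, where 9.51%, 13.7% and 3.07% of all genes did). In p53 wild-type lines 7 of 37 fell against hindbrain NSC and none rose, where 9.56% of all genes passed in either direction. Src, a kinase activated by Eph signals, fell by 1.34 ± 0.18 (adjusted p = 3.76e-04), Vav3, an exchange factor that acts downstream of Eph receptors, by 1.35 ± 0.21 (adjusted p = 8.25e-04), and Ptprf, a receptor phosphatase, by 0.89 ± 0.17 (adjusted p = 0.00352), though not among the lines of the later date mark alone (adjusted p = 0.0579). Against SVZ NSC, 3 of 37 passed, where 5.85% of all genes did: Vav3 fell by 1.81 ± 0.26 (adjusted p = 5.63e-04) and Src by 0.95 ± 0.23 (adjusted p = 0.0207), while Nck2, an adaptor, rose by 1.00 ± 0.28 (adjusted p = 0.0444). Src lost that call without SVZ culture 1 or 2 (adjusted p = 0.147 and 0.113). Nck2 was lower than in hindbrain NSC, by 0.78 ± 0.22 (adjusted p = 0.0348), and lost both calls without any of several single cultures (adjusted p up to 0.184 and 0.108).

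In the p53 het cultures 24 of 37 differed from hindbrain NSC, 6 higher and 18 lower, and 20 of 37 from p53 wild-type lines, 5 higher and 15 lower, where 26.8% and 26.3% of all genes did. Part of these calls rested on a single tumour, so the counts are not read as a property of the list. Against hindbrain NSC, Ngef, Nck2, Crk, Rasa1, Acp1, Anks1b, Pick1, Rock1 and Rac1 lost theirs without tumour 27. Nck2, Adam10, Src, Abl1 and Abl2 lost theirs without tumour B. Against the lines, Ngef, Rasa1, Ptprf, Pick1 and Rock1 lost theirs without tumour 27. Itsn1, Ptprf, Adam10, Abl1, Abl2, Rhoa and Cdc42 lost theirs without tumour B. Grb10, an adaptor that binds receptor kinases, rose by 5.53 ± 0.42 against hindbrain NSC (adjusted p = 3.06e-08) and by 5.78 ± 0.40 against the lines (adjusted p = 1.16e-08). Tiam1, an exchange factor for Rac, rose by 1.93 ± 0.20 (adjusted p = 2.04e-06) and 1.56 ± 0.20 (adjusted p = 1.48e-05), and Anks1, an adaptor of Eph receptors, by 0.91 ± 0.14 (adjusted p = 1.16e-04) and 1.25 ± 0.14 (adjusted p = 2.93e-06). Fyn, a Src-family kinase, fell by 1.69 ± 0.18 (adjusted p = 1.64e-06) and 1.63 ± 0.17 (adjusted p = 1.66e-06), and Ptpro, a phosphatase that acts on Eph receptors, by 2.53 ± 0.33 (adjusted p = 1.66e-05) and 2.65 ± 0.31 (adjusted p = 7.53e-06). Vav3 fell by 3.27 ± 0.31 against hindbrain NSC (adjusted p = 6.67e-07), and Cbl, a ubiquitin ligase for receptor kinases, by 1.22 ± 0.16 against the lines (adjusted p = 1.99e-05).

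Those 2 cultures also differed in cell type markers. Their oligodendrocyte lineage list of 7 averaged 7.56 to 7.89, against 5.76 to 6.58 in all other cultures, and Sox10, its lineage factor, had a mean of 10.06 against 4.23 in the lines. Against the lines 3 of the 7 rose (Pdgfra, Sox10 and Mbp) and 2 fell: Olig1 and Olig2, also lineage factors, had means of 11.04 against 11.95 and 8.53 against 10.03. The same 2 fell against hindbrain NSC, where 4 rose. The neural stem and radial glial list averaged 7.17 to 7.42, against 8.14 to 9.37 in the p53 wild-type lines. Of the 8 mural and fibroblast markers 3 rose against the lines (Col1a1, Col3a1 and Lum), 0 fell and the rest were not called. Their list averaged 2.60 to 3.55 in the p53 het cultures and 1.93 to 2.41 in the lines. Col3a1, a fibroblast collagen, had a mean of 5.79 in the p53 het cultures and 1.32 in the lines. The part of these cells in the Efnb3, Efna1 and partner differences was not tested.

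Between lines and tissue 24 of 37 partners differed, 13 higher and 11 lower in the lines, where 49.6% of all genes did. Vav3 rose by 4.34 ± 0.23 (adjusted p = 1.99e-07), from 1.99 to 2.96 in tissue to 6.36 to 7.88 in the lines. Fyn rose by 1.67 ± 0.08 (adjusted p = 8.67e-08) and Cbl by 1.76 ± 0.14 (adjusted p = 3.19e-06). Itsn1, an exchange factor for Cdc42, fell by 1.30 ± 0.08 (adjusted p = 5.94e-07), Vav2 by 1.15 ± 0.09 (adjusted p = 2.54e-06) and Sdcbp, a scaffold that binds B-type ephrins, by 0.49 ± 0.06 (adjusted p = 6.18e-05).

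For the 3 genes whose group means spanned at least 2 log2 units, the closest profiles among all genes were sought by the root mean square difference over the 27 samples, after each gene was centred. Closest to Efna5 were Sertm1 (0.92) and Trp53i11 (1.06), and closest to Epha5 were Dmd (0.84), the dystrophin gene, and Wnt5a (0.84), a secreted Wnt ligand. Sertm1 and Trp53i11 also had their highest group means in cerebellar NSC, 4.90 and 9.25. Wnt5a had group means of 6.26 to 6.42 in the NSC, 4.63 in the p53 wild-type lines, 2.58 in the p53 het cultures and 2.23 in tissue. Closest to Epha7 were 9330159F19Rik (0.39) and Ier5 (0.42), with tissue means of 6.28 and 8.97 against at most 4.17 and 6.98 in the culture groups.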

How the data were processed

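RNA was extracted with RNeasy and hybridised as biotinylated cRNA to Affymetrix mouse arrays, per the labels. The authors deposited probe set values on a log2 scale, made with RMA, per the submitters' processing notes; its version is not given in the sources used here. Of 45101 probe sets, 34958 carried 1 gene symbol, and the brightest over 31 arrays stood for each of 18194 genes. Array medians were 3.166 to 3.324. The number of arrays limits the precision.

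Differences were tested two-sided with limma 3.58.1 in R 4.3.3 (lmFit, eBayes), with Benjamini-Hochberg adjustment over all genes at 0.05. The 9 NSC arrays shared a fit (6 residual degrees of freedom) and the 19 cultures another (14); each line was set against its own tissue through a tumour block (7). This assumes that the 2 p53 het tumours vary as the remaining cultures do. The script was tested on simulated data. Members and lists were chosen with earlier results of these data known. The named list genes are up to 3 called genes with the smallest p per list, direction and comparison.

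The NSC carry replicate numbers. Deviations of same-numbered cultures correlated at 0.25 to 0.32 between IV ventricle and SVZ and at 0.17 to 0.34 between cerebellar and SVZ. Between IV ventricle and cerebellar cultures they ran from -0.14 to 0.38. Most same-numbered cultures also share a date mark, so these values do not settle whether the numbers pair the cultures. The main fits took no block for the number. Promoters are from RefSeq. Figures used Python 3.11.15 and matplotlib 3.10.9.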

Additional observations from a re-analysis of the deposited data

Results flagged for a closer look

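The difference in Efnb3 between tumour cultures and hindbrain NSC was not the same in the p53 genotypes: it was -1.13 in the p53 het cultures, which passed, and -0.10 in the p53 wild-type lines, which did not. Genotype and date mark cannot be told apart here. Since the control cultures are the same, the difference of the 2 effects equals that between the p53 het and p53 wild-type cultures, -1.03, with an adjusted p of 0.00366 in limma over all genes, and both p53 het tumours lay below all 8 lines. It was 1 of 9 genes of the set, where 26.3% of all genes passed. Without tumour 27 it was -0.91, with an adjusted p of 0.0631. No sample of the 8 lines or of the 8 tissues stood apart from the rest of its group in Dixon's test for any of the 9 genes.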

How the results depend on the processing

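Over 1480 differences of the 9 genes under alternative settings, 1328 counted as unchanged. These were called differences that stayed called with the same sign, at any size, and uncalled ones that moved within 1 standard error. Another 96 uncalled differences moved beyond it, 37 calls were lost, 18 were gained and 1 called difference reversed. Among the first 2 of these classes, 58 uncalled differences changed sign. The reversal was Efna5 between lines and tissue on its dimmer probe set, 0.038 (adjusted p = 0.641). Genes passing in cerebellar against SVZ cultures numbered 1 with only those arrays and, blocked by date mark, 2 (Efna5 and Efnb1). IV ventricle against cerebellar cultures gave 1 with the date mark as a block (0.0495% of all genes), where IV ventricle culture 2, alone in its mark, carries no weight. With a culture left out the count was 0 to 1, where 0 to 7 of 18194 genes passed. A 2-fold minimum left 0 genes in lines against hindbrain NSC, 0 against SVZ NSC, 1 in p53 het against hindbrain NSC, 0 in p53 het against p53 wild-type and 1 in lines against tissue. In the first 3 of these comparisons 15, 27 and 599 of all 18194 genes passed it. For p53 het against p53 wild-type and lines against tissue that share is not given here, so their counts are not read further. Lines of the later date mark alone gave 1 against hindbrain NSC and 1 against SVZ NSC, among 1003 and 708 of all 18194 genes. Against SVZ NSC, leaving out the dimmer genes also gave 1 (862 of 9097 genes passed) and leaving out a culture 1 to 2 (323 to 1293 of 18194). Leaving out a culture gave 2 to 4 in p53 het against hindbrain NSC, where 3781 to 4697 of 18194 genes passed. Against p53 wild-type lines it gave 0 to 2, and lines of the earlier date mark gave 2. In the main fit of that comparison 26.3% of all genes passed. The 4 pairs sharing a date mark gave 3, where 40.2% of all genes passed. The share of all genes that passed also changed with the setting, so these counts are not read as a property of the set. The cause of these changes was not tested. With the replicate number as a block, 0 genes passed in each NSC comparison, as without it; Efna5 between cerebellar and SVZ cultures had an adjusted p of 0.177.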

Other observations

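Across the 8 p53 wild-type lines, Epha5 and Ephb1 ran in opposite directions. Lines 68 and 77 read highest for Epha5 (4.66 and 4.76) and lowest for Ephb1 (3.99 and 4.14), and line 91 read lowest for Epha5 (1.61) with Ephb1 at 5.73. Pearson's r was -0.86 (exact permutation p = 0.00766, two-sided) and Spearman's rho -0.74 (exact permutation p = 0.0458). Adjusted over the 36 pairs of genes computed, these were 0.276 and 0.729, so the relation does not pass, and without the 2 lines farthest from the median Epha5 r was -0.60. Each date mark holds 4 lines, too few for a value within it. Of the 36 pairs 2 had an unadjusted p under 0.05 for Pearson's r, the other being Efnb1 and Ephb1 (r = 0.76, rho = 0.74, exact permutation p = 0.0268 and 0.0458, adjusted p = 0.483 and 0.729; r = 0.62 without the 2 farthest lines).

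The level of a gene in a line was not shown to follow that in its tissue. For the 9 genes r between line and tissue over the 8 tumours ran from -0.40 (Efnb1) to 0.54 (Ephb1), and 0 of 9 had an unadjusted or adjusted exact permutation p under 0.05, two-sided. For Epha5 r was 0.49 and rho 0.67 (exact permutation p = 0.228 and 0.0831, adjusted p = 0.711 and 0.584), and r was 0.72 without the 2 lines farthest from the median.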
